A study of Mus musculus with 10 samples.

Results

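Mammary tumours whose array titles name LP or NZB (4 arrays: LP A, LP B, NZB A and NZB B) were set against tumours whose titles name MOLF or FVBn (3 arrays: MOLF A, MOLF B and FVBn B), out of 10 arrays in the series. The sides were chosen from these same data, because LP and NZB had the highest and MOLF and FVBn the lowest transcript levels of skeletal muscle and interferon response genes, with Acta1, Atp2a1, Isg15 and Gbp3 as markers. Differences between the sides are therefore a description and carry no test. All arrays hold total RNA of mammary tumours from adult female mice aged 90 days, and the series title places them in MMTV-PyMT transgenic mice, in which a viral promoter active in the mammary epithelium drives the polyomavirus middle T antigen. No other treatment or allele is given. The strain label reads FVB/Nj for every array, so the groups rest on the titles, which also call each strain array a mix without saying what was pooled. The labels do not say whether arrays A and B are separate animals or pools, so the spread between them, and the p-values that rest on it, may be technical. A further 2 arrays name ILn and were not used to choose the sides. The remaining array names no strain and entered no comparison.

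Skeletal muscle fibres use myosin, actin and troponin to contract, a calcium pump to relax, and creatine kinase and glycogen breakdown to supply energy, with separate gene sets in fast and slow fibres. Interferons act on most cell types through STAT and IRF transcription factors, which bind interferon-stimulated response elements in the promoters of antiviral genes. The same signals raise the MHC class I molecules that display peptides on the cell surface and the immunoproteasome and transporter that supply those peptides.

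The defining epithelial keratins were present on all arrays, with Krt8 between 10.81 and 11.38 and Krt18 between 10.18 and 11.06 on the log2 intensity scale used throughout. MOLF A and NZB B stood apart, correlating at 0.927 with each other across probe sets and at 0.812 to 0.868 with the other 7 strain arrays, which correlated at 0.931 or more. Actin control probe sets at the 3' and 5' ends of the transcript, whose log2 signal ratio reflects RNA integrity, gave 0.94 to 1.12 on the LP and NZB arrays, 0.60 and 0.78 on the MOLF arrays and 0.22 on the FVBn array. Each LP and NZB array thus had a higher ratio than each array of the other side. The Gapdh ratio did not separate them (0.19 to 0.37 on the LP and NZB arrays, 0.20, 0.31 and −0.29 on the other 3). The part of these ratios in the results below was not tested.

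Of 7098 genes tested, 213 (3%) were higher on all 4 LP and NZB arrays than on all 3 MOLF and FVBn arrays, and 191 (2.69%) were lower on all 4. Such genes are called separated here, 404 in either direction (5.69%, and 561 or 5.67% of 9899 probe sets). The limma count past an adjusted p of 0.05 was 73 of 9899 probe sets (0.737%), from which nothing is read because these values chose the sides. The median difference over all genes was 0.002. With median centring in place of quantile normalization 166 genes were separated upwards and 99 downwards. Without MOLF A and NZB B, where fewer arrays have to agree, the numbers were 785 (11.1%) and 824 (11.6%). Differences of more than 1 log2 unit, or 2-fold, were found in 60 of the genes separated upwards, 21 of them outside the muscle and interferon lists, and in 11 of those separated downwards, none of which belong to these lists.

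The contractile and energy genes of fast muscle gave the largest upward differences. Acta1, the actin of skeletal muscle, measured 11.64 and 11.48 on the LP arrays and 11.49 and 11.55 on the NZB arrays, against 7.78 and 7.90 for MOLF and 7.86 for FVBn. Its 4 high values lay close together and the groups were far apart, a 12.9-fold difference (log2 difference 3.69, SE 0.11). Atp2a1, the calcium pump of fast fibres, measured 10.56, 10.86, 10.58 and 10.58 on LP A, LP B, NZB A and NZB B, against 8.81 and 7.28 for MOLF and 6.71 for FVBn. The difference was 3.27 (SE 0.34), and its second probe set gave 4.43. The fast myosin heavy chain Myh4 measured 11.04 and 10.37 in LP, 9.85 and 10.29 in NZB, 6.51 and 6.91 in MOLF and 4.91 in FVBn, and its difference of 4.57 (SE 0.23) was the largest of the muscle list. A second probe set of Myh4 differed by −0.39 with overlapping arrays.

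Of 54 muscle list genes on the array 47 were bright enough to test, and 26 of these were separated upwards and 0 downwards, with a median difference of 1.18. The rule used these values, so they support nothing further. Among the further members were the fast troponin Tnnt3 (3.75), the fast myosin Myh1 (3.71), the muscle cytochrome oxidase subunit Cox6a2 (3.48) and the fast fibre actinin Actn3 (3.44), each at the floor of 4.75 on 1 or 2 of the MOLF and FVBn arrays, so that these differences are understated. The floor is the intensity below which values were levelled. The second probe set of Actn3 gave a smaller difference of 1.21. Cox6a2 was uneven in MOLF, at 7.27 on MOLF A and the floor on MOLF B, and LP A and MOLF A differed by 1.74. Muscle glycogen phosphorylase Pygm differed by 3.35, creatine kinase Ckm by 2.55 and myoglobin Mb by 1.86. Other muscle genes, picked here after their values were seen, overlapped between the sides. The slow troponins Tnnt1 and Tnni1 differed by 0.32 and −0.15, the slow myosin Myh7 by 0.39, and the transcription factors Myod1, Myog and Myf6 by 0.08, 0.17 and 0.28. In whole tumours, fewer cells of a type and less RNA per cell cannot be told apart. Without MOLF A and NZB B the list median was 1.36 and 34 members were separated upwards.

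Antiviral effectors and interferon-induced GTPases were the other group that chose the sides. Isg15, a ubiquitin-like modifier, measured 9.64 and 9.68 in LP, 9.12 and 9.25 in NZB, 7.04 and 7.64 in MOLF and 8.13 in FVBn. Gbp3, a guanylate-binding protein, measured 9.53 and 9.66 in LP, 8.62 and 8.49 in NZB, 6.53 and 6.71 in MOLF and 7.54 in FVBn. For both genes LP was the highest and MOLF the lowest, with differences of 1.69 (SE 0.18) for Isg15 and 2.00 (SE 0.16) for Gbp3. Ifit3, which binds foreign RNA complexes with its relatives, measured 8.51, 8.19, 7.91 and 7.87 on LP A, LP B, NZB A and NZB B, against 5.23 and the floor for MOLF and 5.56 for FVBn. It differed by 2.85, its relative Ifit1 by 2.70, the transcription factor Irf7 by 2.26 and the ISG15 protease Usp18 by 2.07. Irf7 was far lower on MOLF A (5.25) than on MOLF B (7.72) and FVBn (7.79), and its second probe set differed by 0.97. Without MOLF A and NZB B the difference was 1.77 for Irf7 and 2.46 for Ifit1, but 2.97 for Ifit3 and 2.40 for Usp18. Mx1, an antiviral GTPase, lay at the floor on all 3 MOLF and FVBn arrays and at 6.42 to 7.14 on the other 4, at least 4.11-fold higher.

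Of 41 interferon list genes on the array 38 could be tested, and 21 of these were separated upwards and 0 downwards, with a median difference of 0.95, again values that the rule used. Ly6e (−0.12), Ifi30 (−0.04), Ifitm1 (0.02), Ifitm2 (0.02) and Ifi27 (0.10), which respond to interferon in many tissues, overlapped between the sides. Without MOLF A and NZB B the list median was 1.01, with 28 members separated upwards. The strain arrays carry 3 title dates, of which 2 hold arrays of both sides. The third holds NZB B and ILn A and gives no comparison. On the date shared by LP B, NZB A, MOLF B and FVBn B the median difference was 1.24 for muscle, 1.02 for interferon, 0.58 for class I and 0.35 for class II genes. On the date shared by LP A and MOLF A the medians were 1.67, 1.24, 0.80 and 0.41.

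**Figure D1:**
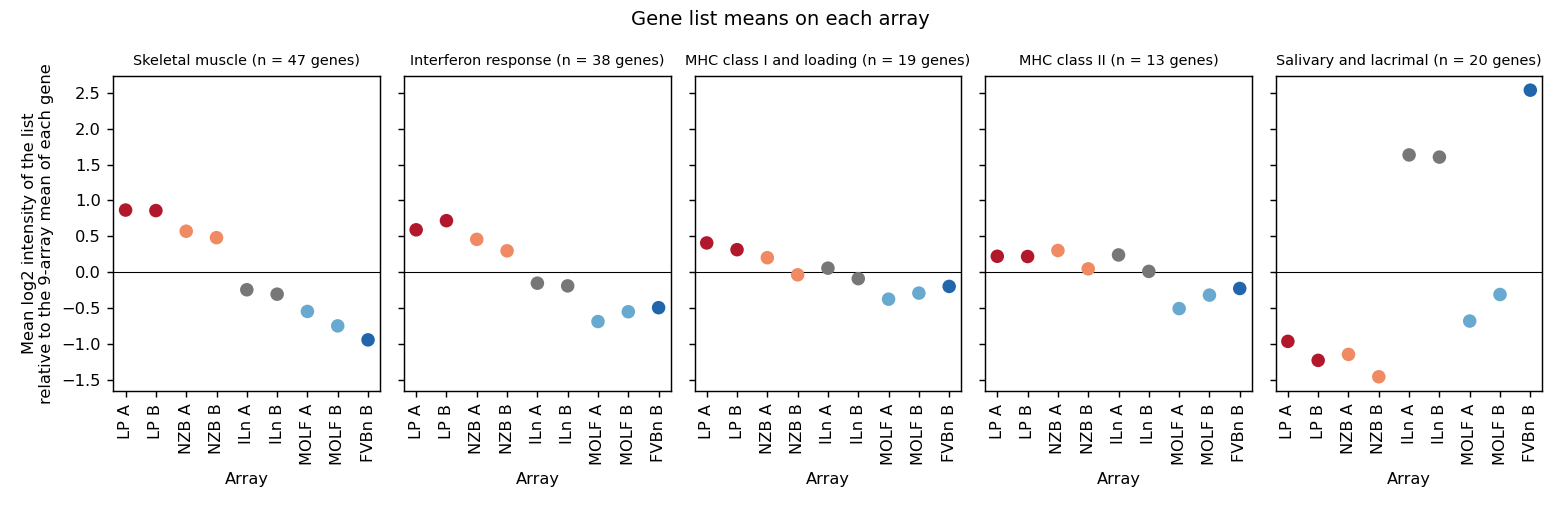
Mean log2 intensity of 5 gene lists on each of the 9 strain arrays (x axis), relative to the 9-array mean of each gene (y axis). Each point is 1 array, coloured by strain. Muscle list means were 0.48 to 0.87 on the LP and NZB arrays and −0.94 to −0.54 on the MOLF and FVBn arrays, and the salivary list was highest on FVBn B (2.53).

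The start regions of genes from each group were read from RefSeq for GRCm38.p6 to show the elements through which these groups are known to be controlled. Each is the 250 bases before the annotated start, 5' to 3' on the gene's strand. In the first 3, capitals mark GAAA, any 2 bases and GAAA again, on either strand, the core of an interferon-stimulated response element, with overlapping matches joined. In the last 2, capitals mark a CArG box, the site of serum response factor. They are Isg15 (chr4:156200819-156201068, minus strand), Gbp3 (chr3:142559794-142560043, plus strand), B2m (chr2:122147437-122147686, plus strand), Acta1 (chr8:123894776-123895025, minus strand) and Myh4 (chr11:67237562-67237811, plus strand).
Isg15: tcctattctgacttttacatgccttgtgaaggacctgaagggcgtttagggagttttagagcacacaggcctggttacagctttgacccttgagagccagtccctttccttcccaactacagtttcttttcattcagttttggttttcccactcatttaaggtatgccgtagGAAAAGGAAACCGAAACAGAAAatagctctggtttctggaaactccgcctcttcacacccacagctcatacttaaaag
Gbp3: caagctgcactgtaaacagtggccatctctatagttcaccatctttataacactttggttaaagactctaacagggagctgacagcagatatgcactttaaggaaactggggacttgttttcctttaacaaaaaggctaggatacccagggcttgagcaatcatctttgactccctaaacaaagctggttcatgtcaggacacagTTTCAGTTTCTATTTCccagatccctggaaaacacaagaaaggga
B2m: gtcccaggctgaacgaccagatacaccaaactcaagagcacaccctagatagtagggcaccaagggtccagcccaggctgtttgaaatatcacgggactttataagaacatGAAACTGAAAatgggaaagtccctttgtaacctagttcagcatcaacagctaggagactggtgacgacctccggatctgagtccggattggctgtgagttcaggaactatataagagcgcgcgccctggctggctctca
Acta1: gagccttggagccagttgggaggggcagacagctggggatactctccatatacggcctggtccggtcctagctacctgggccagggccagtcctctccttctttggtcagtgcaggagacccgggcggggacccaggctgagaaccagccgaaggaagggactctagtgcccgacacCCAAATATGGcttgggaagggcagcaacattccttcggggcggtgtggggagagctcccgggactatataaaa
Myh4: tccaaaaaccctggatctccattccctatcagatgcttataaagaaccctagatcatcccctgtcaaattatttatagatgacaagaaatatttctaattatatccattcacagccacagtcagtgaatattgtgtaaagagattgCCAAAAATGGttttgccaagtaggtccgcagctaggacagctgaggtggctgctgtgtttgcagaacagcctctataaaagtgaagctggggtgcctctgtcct

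The Isg15 region holds 3 overlapping matches beginning 78, 72 and 66 bases before the start, Gbp3 holds 2 beginning 45 and 39 bases before it, and B2m holds 1 beginning 139 bases before it. The CArG boxes begin 73 bases before the start of Acta1 and 104 before that of Myh4. Motifs were counted over the whole 300 bases of each table entry, from 250 bases before to 50 after the start. The response element core occurred in 3.44% of all 32851 promoter entries. Counted by gene, with a match in any entry, it occurred in 3.75% of the 5675 tested genes with an entry. It occurred in 8 of the 17 separated interferon genes with an entry and in 8 of the 14 that overlapped. It was in 1 of 8 separated class I genes and in 0 of 21 separated muscle genes. The CArG box occurred in 1.63% of all entries and, by gene, in 1.85% of the tested genes. It was in 5 of the 21 separated muscle genes, in 1 of 15 muscle genes that overlapped and in 0 of the 17 interferon genes. Outside these lists the core was in 8 of 134 genes separated upwards (5.97%) and in 6 of 157 separated downwards (3.82%). A match is a description of these letters and not a bound site.

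Beyond the lists that chose the sides, the MHC class I and peptide loading genes were also higher in LP and NZB. B2m, the beta-2 microglobulin that pairs with every class I heavy chain, measured 11.77 and 11.60 in LP, 11.77 and 11.57 in NZB, 10.01 and 9.72 in MOLF and 10.67 in FVBn. The LP and NZB values were level and all above the rest, a 2.66-fold difference (log2 difference 1.41, SE 0.12). The peptide transporter Tap1 measured 8.90, 9.18, 8.93 and 8.42 on LP A, LP B, NZB A and NZB B, against 7.58 and 7.86 for MOLF and 7.66 for FVBn, and differed by 1.17 (SE 0.19). Its other probe set was dimmer, at 4.76 to 5.72 on these arrays, and differed by −0.01. The immunoproteasome subunits Psmb9 and Psmb8 differed by 1.15 (SE 0.51) and 1.04 (SE 0.17). Psmb9 rested largely on MOLF A, which lay at the floor, and without MOLF A and NZB B its difference was 0.70.

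Of 19 class I and loading genes tested, 8 were separated upwards and 1 downwards, with a median difference of 0.51. The other separated members were the heavy chains H2-Q4 (0.83), H2-K1 (0.78) and H2-D1 (0.71) and the loading chaperone Tapbp (0.67), while H2-Q1 was lower (−0.83). The heavy chains are close copies of one another, so their probe sets may share signal. The general chaperones of the same pathway, Canx (0.10) and Pdia3 (−0.06), overlapped. Without MOLF A and NZB B the median was 0.59, with 12 members separated upwards and 1 downwards.

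MHC class II genes, which present peptides on antigen-presenting cells, differed less evenly. H2-Eb1, a class II beta chain, measured 9.28 and 8.88 in LP, 8.64 and 7.34 in NZB, 5.39 and the floor in MOLF and 7.17 in FVBn. FVBn lay close below NZB B, and the difference was 2.42 (SE 0.36). The other separated members were H2-Oa (0.79), a class II chain that modulates peptide loading, and Cd74 (0.40, SE 0.12), the invariant chain. Of 13 class II genes 3 were separated upwards and 0 downwards, with a median of 0.40. For cell types that carry class II, median differences were −0.04 for macrophage genes (1 of 25 separated each way) and 0.23 for B and plasma cell genes (1 of 14 separated upwards). Array means of both lists overlapped between the sides, at −0.13 to 0.04 on the LP and NZB arrays for macrophages against −0.23 to 0.07 on the other 3. For B and plasma cells they were −0.12 to 0.41 against −0.49 to 0.24, highest on NZB B and MOLF A. Without NZB B and MOLF A, 3 of 14 B and plasma cell genes were separated upwards and 0 downwards. For macrophage genes the counts were 2 and 1 of 25, and for class II genes 4 and 0 of 13. Over all genes 11.1% were then separated upwards.

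**Figure D2:**
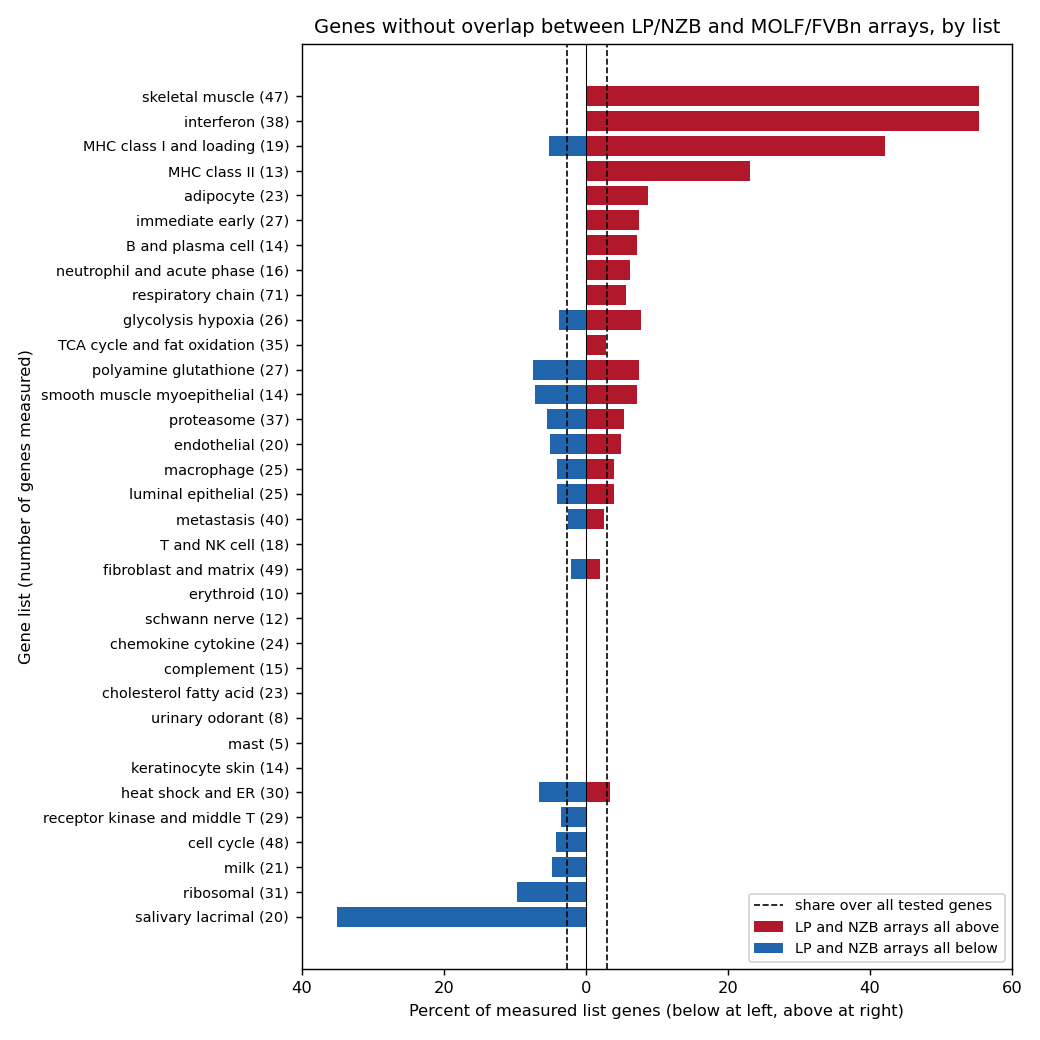
Percent of measured genes of each list (y axis, with the number measured) whose 4 LP and NZB arrays lay all above (red, right) or all below (blue, left) the 3 MOLF and FVBn arrays. Dashed lines give the share over all tested genes, 3% above and 2.69% below. The muscle, interferon and both MHC lists extend furthest to the right and the salivary list (35%) furthest to the left.

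Among the 15 separated genes with the largest upward differences outside the muscle and interferon lists were some known from muscle and some induced by interferon. Ndrg2, an N-myc downstream-regulated gene abundant in muscle and brain, lay at the floor on all 3 MOLF and FVBn arrays and at 6.80 and 7.22 in LP and 7.05 and 6.12 in NZB, at least 4.12-fold higher. Ak1, the adenylate kinase of muscle, differed by 1.44, Eef1a2, the elongation factor form of muscle and nerve, by 1.36, Sh3bgr, a muscle-enriched gene, by 1.16 and the reticulon Rtn2 by 1.48. The other 2 probe sets of Sh3bgr, both dim at 5.62 or less on these arrays, differed by 0.08 and 0.07. Cmpk2, a mitochondrial nucleotide kinase induced by interferon, measured 6.67 and 7.09 in LP, 5.87 and 6.78 in NZB, 4.82 and the floor in MOLF and 5.23 in FVBn, a difference of 1.59 (SE 0.32). Znfx1, a helicase of antiviral defence, measured 8.23, 8.24, 8.38 and 8.38 on LP A, LP B, NZB A and NZB B against 6.47 and 7.02 for MOLF and 7.08 for FVBn, with LP and NZB nearly equal. Trafd1, a feedback regulator of innate immune signalling, differed by 1.28 (0.25 in its other probe set), the long noncoding RNA AW112010 by 1.16, and Gm9706, annotated as a pseudogene, by 2.36.

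**Figure D3:**
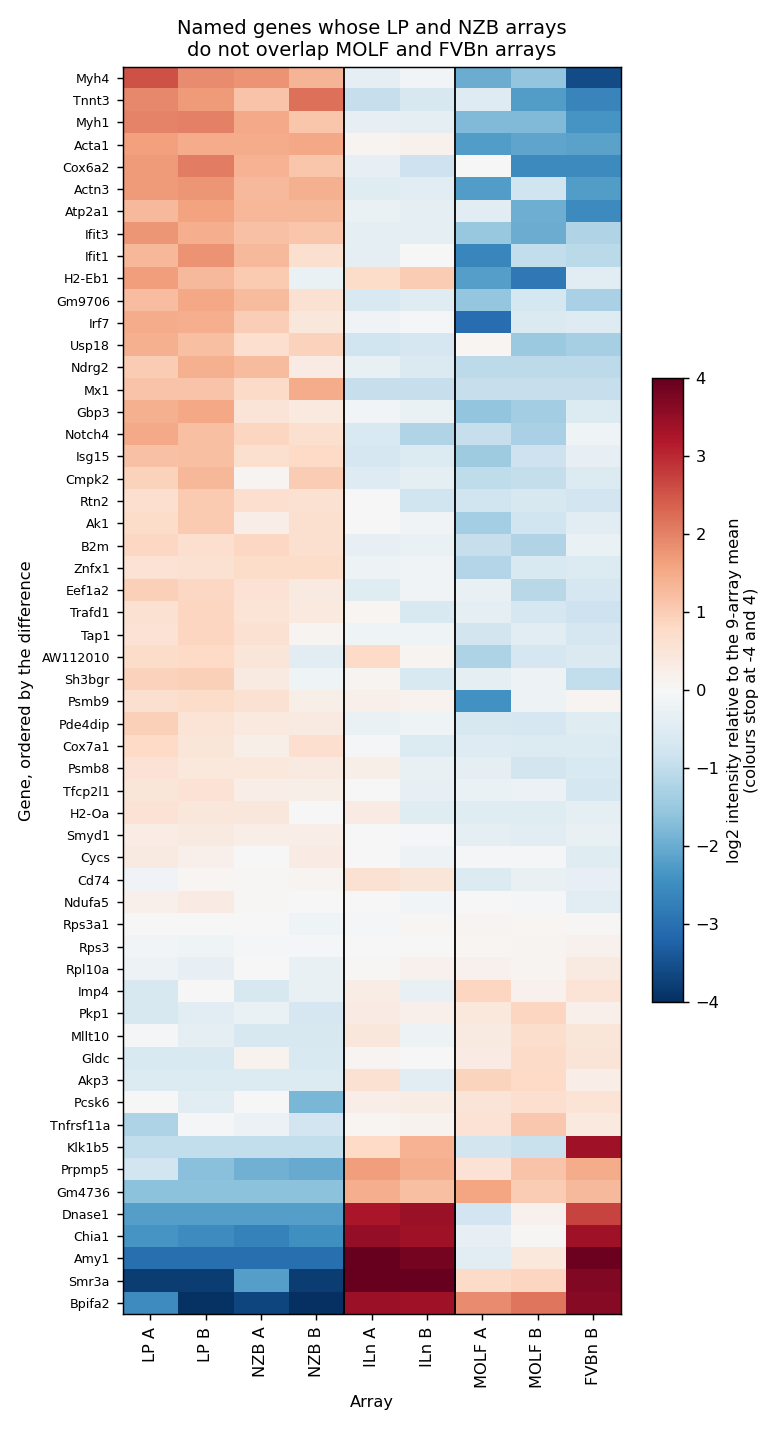
Log2 intensity of the named separated genes (rows, ordered by the difference between the sides) on the 9 strain arrays (columns), relative to the 9-array mean of each gene, with colours ending at −4 and 4. LP and NZB arrays are at the left, ILn in the middle, MOLF and FVBn at the right. Myh4 (4.57) is at the top and Bpifa2 (−6.44) at the bottom.

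The genes most like the muscle list over the 9 strain arrays, outside both lists, were Ndrg2 (Pearson r 0.963), Trafd1 (0.961), Tfcp2l1 (0.960), Pde4dip (0.959) and Smyd1 (0.956). Those most like the interferon list were Tap1 (0.979), Gm9706 (0.978), Ndrg2 (0.978), Smyd1 (0.978) and Pde4dip (0.965). Ndrg2, Smyd1 and Pde4dip appear in both sets. Smyd1, a methyltransferase of muscle, differed by 0.63 between the sides, Pde4dip, the scaffold protein myomegalin, by 1.14 and Tfcp2l1, a transcription factor of epithelia, by 0.88. The arrays of a strain share their source, and these values describe likeness only.

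The genes separated upwards were unevenly spread over the genome. RefSeq placed 394 tested genes outside the muscle and interferon lists on chromosome 17, and 25 of them (6.35%) were separated upwards, against 166 of 7013 (2.37%) over all chromosomes. This was the highest share of any chromosome, followed by chromosomes 2 (4.15%) and 1 (4.13%). Chromosome 17 holds the MHC. In the interval from H2-K1 to H2-D1, 62 genes were tested, of which 9 (14.5%) were separated upwards and 1 downwards, with a median difference of 0.25. In their order along the chromosome the 9 were H2-K1, Slc39a7, H2-Oa, Psmb9, Tap1, Psmb8, H2-Eb1, Notch4 and H2-D1. Slc39a7, a zinc transporter, differed by 0.32, and the gene separated downwards, the chaperone Bag6, by −0.59. Notch4, a Notch receptor of endothelium and mammary epithelium, lay only 1 tested gene (H2-Ea) away from H2-Eb1.

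Notch4 measured 12.30 and 12.00 in LP, 11.67 and 11.44 in NZB, 9.89 and 9.50 in MOLF and 10.61 in FVBn, a difference of 1.70 (SE 0.19). Its other probe set lay at or near the floor, at 4.75 to 5.10 on these arrays, and differed by 0.05 with overlapping arrays. The endothelial list, to which Notch4 belongs, had a median of −0.01, with 1 of 20 genes separated each way. Without MOLF A and NZB B, 65 of the 394 genes on chromosome 17 (16.5%) and 18 of the 62 in the interval (29.0%) were separated upwards, against 10.3% over all chromosomes. Chromosome X was the opposite case, with 1 of 201 genes separated upwards (0.498%) and 11 downwards (5.47%, against 2.72% over all chromosomes).

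**Figure D4:**
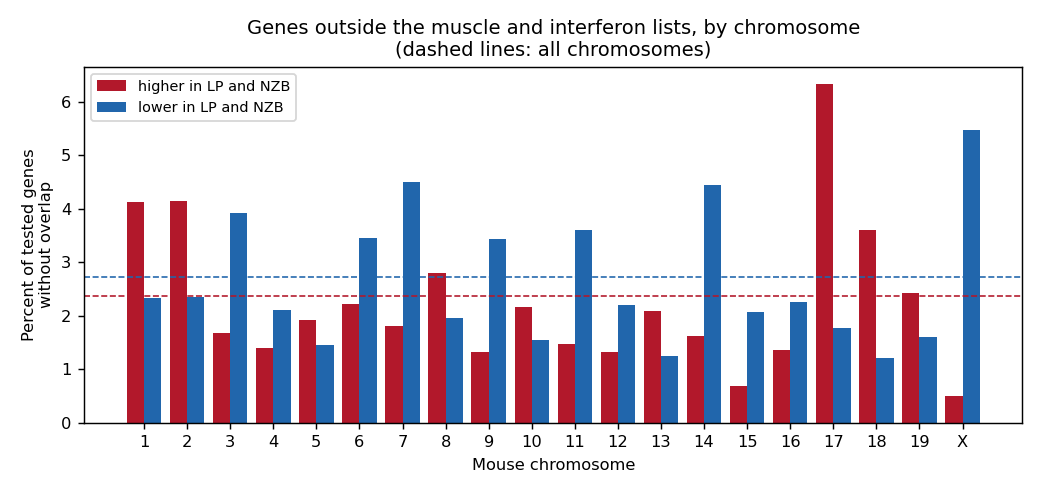
Percent of tested genes outside the muscle and interferon lists (y axis) that were separated upwards (red) or downwards (blue) in LP and NZB, for each chromosome (x axis). Dashed lines give the shares over all chromosomes, 2.37% and 2.72%. Chromosome 17 has the tallest red bar (6.35%) and chromosome X the tallest blue bar (5.47%).

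The largest downward differences were in secreted proteins of the salivary and lacrimal glands. Bpifa2, the parotid secretory protein, measured 7.18 and 5.72 in LP, 6.02 and 5.38 in NZB, 11.57 and 11.83 in MOLF and 13.32 in FVBn, a difference of −6.44 (SE 0.35). Smr3a, a submaxillary gland protein, lay at the floor on LP A, LP B and NZB B and at 6.35 on NZB A, against 9.31 and 9.42 for MOLF and 12.25 for FVBn. In both genes the MOLF arrays were near each other and well above LP and NZB, and the FVBn array was higher still. Amy1, the salivary amylase, lay at the floor on all 4 LP and NZB arrays and at 7.30 and 8.18 in MOLF and 11.67 in FVBn, at least 30.9-fold lower in LP and NZB. The acidic chitinase Chia1 differed by −4.13 and the nuclease Dnase1 by at least 10.7-fold. The proline-rich protein Prpmp5 differed by −2.77, and −2.25 in its other probe set, and the tissue kallikrein Klk1b5 was at least 4.88-fold lower, with MOLF at 5.02 and 4.85 and FVBn at 9.15.

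Of 20 salivary and lacrimal genes tested, 7 were separated downwards and 0 upwards, with a median difference of −2.27. This median rested on the single FVBn array: without it the median was −0.14, and the differences of Bpifa2, Smr3a, Amy1 and Chia1 were −5.63, −4.21, −2.99 and −2.37. Without FVBn, Dnase1 differed by −1.91, Prpmp5 by −2.45 and Klk1b5 by −0.18. LP A and MOLF A, which share a title date, differed by −4.39 for Bpifa2, −4.56 for Smr3a, −2.55 for Amy1 and −2.04 for Chia1, with a list median of 0. The list mean was −1.45 to −0.96 on the LP and NZB arrays, −0.68 and −0.31 on the MOLF arrays and 2.53 on the FVBn array, which also had the lowest actin ratio of the 7, and the part of that ratio in the result was not tested.

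Further genes with the largest downward differences had varied functions and, apart from Gm4736 (−2.93), smaller differences. Tnfrsf11a, the receptor RANK that directs mammary gland growth, measured 5.66 and 6.85 in LP, 6.67 and 6.14 in NZB, 7.48 and 7.96 in MOLF and 7.30 in FVBn, a difference of −1.18 (SE 0.37). The proprotein convertase Pcsk6 differed by −1.14, but by −0.73 without MOLF A and NZB B, since NZB B was low at 5.08. The desmosomal protein Pkp1 (−0.94, and −1.24 in its other probe set), the ribosome assembly factor Imp4 (−0.94), the chromatin cofactor Mllt10 (−0.94) and the glycine-degrading enzyme Gldc (−0.95) followed. Gm4736, a predicted gene, and Akp3, an intestinal alkaline phosphatase, lay at the floor on all 4 LP and NZB arrays and were at least 7.64-fold and 2.14-fold lower. Gm4736 measured 7.96 and 7.41 in MOLF and 7.69 in FVBn, so that, unlike the salivary genes, its level was even across the 3 arrays.

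In the remaining lists few members were separated, at most 4 in a direction. Over all genes 3% were separated upwards and 2.69% downwards, and some of these lists exceeded those shares. The respiratory chain list had 4 of 71 genes separated upwards (5.63%) and a median of 0.01. Of these, Cox6a2 and Cox7a1 (1.08) are the muscle forms of cytochrome oxidase subunits and were also counted on the muscle list, and Cycs, cytochrome c, and Ndufa5, a subunit of complex I, differed by 0.49 and 0.40. The ribosomal list had 3 of 31 genes separated downwards (9.68%) and a median of −0.03. Of these, Rpl10a differed by −0.46 (0.26 in its other probe set), Rps3 by −0.23 and Rps3a1 by −0.13 (SE 0.10). The mitochondrial fuel list, with the citric acid cycle and fat oxidation, had a median of 0.00 (1 of 35 separated upwards), and glycolysis and hypoxia −0.08 (2 upwards and 1 downwards of 26). The luminal epithelial (0.07), milk (−0.02), fibroblast and matrix (−0.08), adipocyte (0.12), T and NK cell (0.11), cell cycle (−0.09) and metastasis-associated (−0.09) lists also had medians near 0, with at most 2 members separated in a direction. The highest of these shares was that of the adipocyte list, 2 of 23 upwards (8.7%). Besides the muscle list, the array means of the interferon, both MHC, smooth muscle and myoepithelial (higher in LP and NZB), salivary and urinary protein lists (lower) did not overlap between the sides. For smooth muscle and myoepithelium the gap was narrow. The lowest LP or NZB array lay at −0.069 and the highest MOLF or FVBn array at −0.079, and 1 of 14 genes was separated each way. Of the urinary protein genes 0 of 8 were separated.

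The ILn arrays were put on neither side. Because the sides were the highest and lowest strains for muscle and interferon genes, the choice largely fixed a middle position of ILn for these, and their values are a description. For Acta1 they measured 10.12 and 10.17, for Pygm 6.63 and 6.60 and for Gbp3 7.98 and 7.84. For Isg15 the ILn arrays measured 7.81 and 7.91, below the FVBn array at 8.13 and above MOLF. Of the 26 separated muscle genes, both ILn arrays fell in the gap between the sides for 14, within or beyond the MOLF and FVBn values for 6 and with LP and NZB for 1, and the ILn arrays were split for 5. Of the 21 separated interferon genes the counts were 7, 8, 4 and 2 in the same order, and of the 8 class I genes 4, 0, 1 and 3. Of the 158 genes separated upwards outside these lists they were 11, 29, 42 and 76. For all 7 separated salivary genes both ILn arrays lay with MOLF and FVBn. Of the 183 other genes separated downwards this held for 55. Bpifa2 measured 13.12 and 13.08 and Amy1 12.04 and 11.60 in ILn, close to FVBn. H2-Eb1 went the other way, with ILn at 8.33 and 8.61, among the LP and NZB values. Further probe sets of the separated genes are given as a description, each probe set counted once. Separated genes of the muscle and interferon lists had 13, of which 10 had the same sign and 6 were also separated in the same direction. The rule used the levels of these genes, so this likeness supports nothing further. Separated genes outside these lists had 106 further probe sets. Of these, 66 had the same sign, 8 were separated in the same direction and 2 the opposite way. Most of the 106 were thus not separated again. Over all genes 3% were separated upwards and 2.69% downwards, and without any difference about as many signs would agree as disagree.

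**Figure D5:**
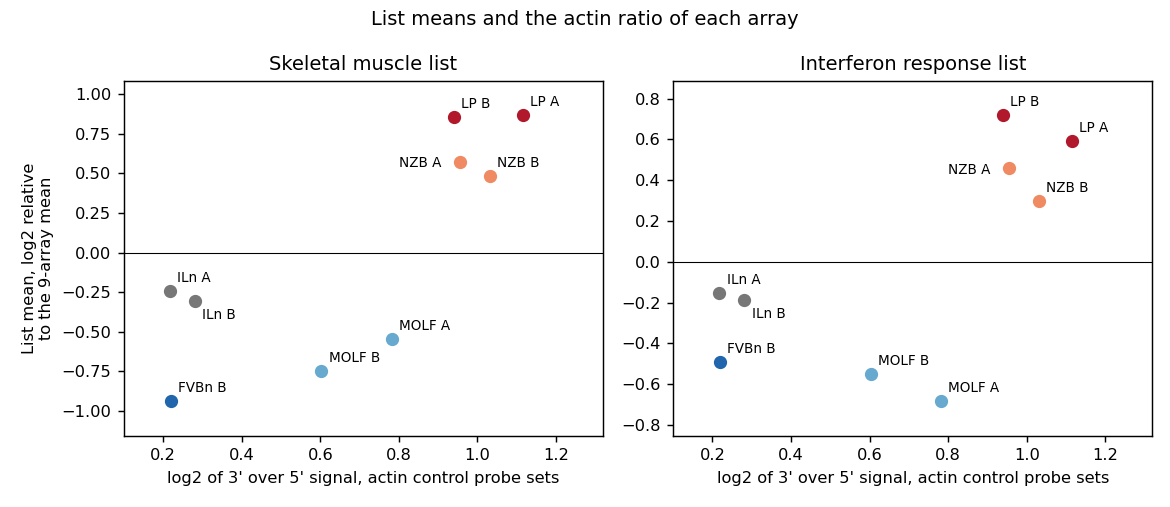
List means (y axis, log2 relative to the 9-array mean) of the muscle list (left) and the interferon list (right) against the log2 ratio of 3' to 5' actin signal (x axis) for the 9 strain arrays, each point 1 array. LP and NZB arrays have ratios of 0.94 to 1.12 and the highest list means, while the ILn arrays (0.22 and 0.28) lie above the MOLF arrays (0.60 and 0.78) in both lists.

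Differences within each side were tested over all probe sets. Strains were put on the same side for being alike in muscle and interferon transcripts, so for those genes the within-side values are a description. LP and NZB differed in 1 of 9899 probe sets (0.0101%, limma, Benjamini-Hochberg adjusted p under 0.05, 662 at an unadjusted p under 0.05). This was Csn1s2a, a milk casein, at 8.89 and 8.98 in LP and 10.70 and 10.82 in NZB, 3.56-fold lower in LP (log2 difference −1.83, SE 0.14, adjusted p = 0.0231). MOLF and FVBn lay between them at 9.57, 9.46 and 9.31. The count was 0 to 7 over the alternatives. None of the 19 class I or 13 class II genes passed for LP against NZB or for MOLF against FVBn, nor did any of the 47 muscle and 38 interferon genes, from which nothing is read. For Acta1, LP and NZB differed by 0.04 (SE 0.14) and MOLF and FVBn by −0.02 (SE 0.17). For Gbp3 the differences were 1.04 (SE 0.20) and −0.92 (SE 0.24). Missing the threshold does not show that the strains on a side were alike.

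MOLF and FVBn differed in 23 probe sets (0.232%), 5 higher in MOLF (0.0505%) and 18 lower (0.182%), with 423 at an unadjusted p under 0.05. FVBn had a single array with no replicate and took its spread from the other strains, so each of these calls rests on that 1 array and on that assumption. The lower ones were led by secreted gland proteins that measured high on the FVBn array. Mucl2 and Mucl1, mucin-like secreted proteins, measured 12.57 and 11.86 in FVBn. Mucl2 lay at 5.20 and the floor in MOLF (log2 difference −7.59, adjusted p = 0.00117) and Mucl1 at the floor on both MOLF arrays, at least 137-fold lower (adjusted p = 0.000681). Prol1, a proline-rich lacrimal protein, differed by −6.81 (adjusted p = 0.00304) and the kallikrein Klk1 by −5.46 (adjusted p = 0.0029). Of the 20 salivary genes 8 passed, among them Chia1 (−3.51, adjusted p = 0.00283) and Amy1 (−3.93, adjusted p = 0.0125).

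The genes higher in MOLF than in FVBn were led by D17H6S56E-5, at 10.42 and 10.03 against 6.13, a 17.1-fold difference (SE of the log2 difference 0.28, adjusted p = 0.00182). It lies in the MHC interval on chromosome 17, and LP and NZB were as high as MOLF (9.96 to 10.45). Ctse, a cathepsin protease, was 4.76-fold higher in MOLF (adjusted p = 0.0125), the bacterial peptidoglycan receptor Pglyrp1 was 3.63-fold higher (adjusted p = 0.00554) while serum amyloid Saa2 was 3.50-fold higher (adjusted p = 0.0118). A probe set of Pdxdc1 also passed, with a log2 difference of 3.67 (adjusted p = 0.0193), but it is not the brightest of its gene, which differed by −1.13 and did not pass. Other probe sets of Ctse (log2 differences 2.10 and 0.58), Pglyrp1 (1.57) and Saa2 (3.52) were also higher in MOLF but did not pass. On its named probe set Pglyrp1 measured 10.39 and 10.27 in MOLF and 10.25 to 10.52 in LP and NZB, against 8.47 in FVBn. Neither it nor D17H6S56E-5 thus followed the muscle and interferon pattern. With the title date as a block 10 probe sets passed.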

How the data were processed

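Affymetrix mg_u74av2 arrays were used, per the labels. The deposited values are intensity values on a linear scale for 12488 probe sets and 10 arrays. The method of summarising probes is not stated by any label or header used here. The members and gene lists were chosen with earlier results of these data known.

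After removal of 66 control probe sets, the log2 values of the 9 strain arrays were quantile normalized (R 4.3.3, limma 3.58.1). Values under the 30th percentile (intensity 27.0, log2 4.75) were raised to it, and probe sets above it in at least 2 arrays were kept (9899, for 7098 genes). The platform annotation gave 10855 probe sets 1 symbol, 396 several and 1237 none. Of the first, 10839 matched RefSeq genes of GRCm38.p6. The probe set with the highest mean stood for a gene. limma fitted a mean for each of 5 strain names, with an intensity trend and Benjamini-Hochberg adjustment at 0.05. Differences give each strain equal weight. The model has 4 residual degrees of freedom and was tested on simulated data. The number of arrays limits precision.

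Genes named were Acta1, Atp2a1, Isg15, Gbp3 and the 5 further separated genes of each of the muscle and interferon lists with the largest differences, the 15 largest each way outside these lists, the 4 largest of any other list with at least 3 separated in a direction, the 4 largest each way past the test within a side, and the 5 closest in profile to each of those lists. MicroRNA symbols were not named. Others are named to complete a list, or as separated members of the MHC interval, and were chosen after their values were seen. Alternatives covered the normalization, floor, filter, title date or array letter as a block, array weights and the arrays left out.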

Additional observations from a re-analysis of the deposited data

Results flagged for a closer look

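Within the 4 LP and NZB arrays the gap of 1 array to the other 3, as a share of their range, passed Dixon's limit for 2 list means and 9 named genes. Chance gives about 1 group in 20 by this measure where values are not tied, and the 3 MOLF and FVBn arrays are too few for it. In Smr3a, Gldc, Mucl2, Mucl1 and Klk1 the other 3 arrays were all levelled to the floor, so the share is 1 by construction and says nothing of the size of the gap. NZB B was apart in the erythroid list mean (0.142, the other 3 between −0.23 and −0.19) and in the complement list mean (−0.335, the other 3 between 0.10 and 0.13). It was also the outlying array for Rps3a1 (12.10), D17H6S56E-5 (9.96) and Mucl2 (5.21). LP B was the highest for Atp2a1 (10.86) and Rtn2 (7.26). NZB A was the only LP or NZB array above the floor for Smr3a (6.35), Gldc (5.49) and Klk1 (4.86), and LP A for Mucl1 (4.80), the last 2 just above the floor of 4.75.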

How the results depend on the processing

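The count of probe sets past the limma threshold between the sides, 73 in all, was 141 with no filter on dim probe sets (48 higher, 93 lower), 43 when the title date was a block, 42 with the array letter as a replicate block, 35 without ILn and 38 without MOLF A and NZB B, and leaving out single arrays gave 15 to 55. For LP against NZB the count of 1 became 0 with median centring (506 at an unadjusted p under 0.05), with the date block (316), with the letter block (539), without ILn (483) and without MOLF A and NZB B (863). It was 2 with the floor at the 20th percentile, 4 with no floor, 7 with no filter, 6 with the filter at 4 arrays, 2 with array weights and 0 to 6 with single arrays left out. For MOLF against FVBn the count of 23 was 97 with no filter, 10 with the date block, 14 with the letter as a replicate block, 13 without ILn, 60 without MOLF A and NZB B (34 higher and 26 lower, a turned balance) and 12 to 22 with single arrays left out. The letters do not pair the arrays: differences between arrays A and B correlated between strains at −0.02 to 0.13, except −0.71 for NZB and MOLF. Genes separated upwards numbered 213, 785 without MOLF A and NZB B and 270 to 484 with single arrays left out. Those separated downwards numbered 191, 99 with median centring, 824 without both arrays and 254 to 599 with single arrays left out. Fewer arrays separate more easily by construction. The muscle median of 1.18 was 0.92 with no filter, 1.36 without both arrays, 1.67 within the date that LP A and MOLF A share and 1.07 to 1.30 with single arrays left out. The interferon median of 0.95 was 1.04 with arrays weighted equally, 1.24 within that date and 0.83 to 1.09 with single arrays left out. The class I median of 0.51 was 0.80 within that date and 0.46 to 0.67 with single arrays left out. The salivary median of −2.27 was −1.58 with arrays weighted equally, 0 within that date and −2.37 to −0.14 with single arrays left out. The causes of these changes were not tested. Under these alternatives the muscle, interferon and class I medians kept their direction, as did the differences of the genes chosen by the naming rule. The sides were chosen by muscle and interferon values, and the named genes were picked by their values on these same arrays. For these, a kept direction was largely fixed by the choice and supports nothing further. Genes named only to complete a list were not recomputed. Medians of most of the other lists lay near 0 and took both signs.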

Other observations

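The array whose title names no strain had the highest muscle list mean of all 10 arrays (2.26, against 0.87 at most on the strain arrays) with a low interferon list mean (−0.49), close to that of FVBn B, so on it these lists went apart. Atp2a1 measured 12.46 there and Myh4 12.80, while Ifit3, Ifit1 and Mx1 lay at the floor of 4.75. Of the genes that separated LP and NZB from MOLF and FVBn, those known from muscle were high on it, with Ndrg2 at 8.96, Ak1 at 8.93, Rtn2 at 8.74, Eef1a2 at 9.95 and Cox7a1 at 8.69. Many known from the interferon response were low, with Cmpk2 and Gm9706 at the floor, Isg15 at 6.17, Irf7 at 5.40, Znfx1 at 6.75 and Trafd1 at 7.64. Not all were low: Gbp3 measured 7.93, above MOLF and FVBn and level with ILn. The long noncoding RNA AW112010 measured 7.79, above all 9 strain arrays. Class I genes did not go with the interferon genes on it: B2m measured 11.68, level with LP and NZB, and Psmb9 8.62, above all 9 strain arrays. Its adipocyte list mean was 2.50 and its luminal epithelial, milk and salivary list means were −0.83, −1.12 and −1.86. This array has no group, and these are single values.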
